A study of Mus musculus with 2 samples.

Results

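The ependymal wall spots were 60 of the 7260 array spots with at least 500 unique molecular identifiers (UMIs, each counting 1 captured RNA molecule) in 2 coronal sections of mouse brain, 30 in each section. They were chosen by their own RNA. In each section the spots with 0 UMIs of Folr1, a folate receptor gene of the choroid plexus, were ranked by the mean of log1p(10000 × count / spot total) over Ccdc153, Tmem212, Rarres2 and Dynlrb2, and the 30 highest were taken. The lowest score taken was 0.752 in mouse 1 and 0.596 in mouse 2. Among spots with 0 Folr1 the highest score left out was 0.741 and 0.588. Spots with Folr1 could score higher: with no condition on Folr1, the 30 highest spots shared 17 and 11 with those taken. All 4 markers were present in 18 of the 30 spots of each mouse, 3 of them in 7 spots of mouse 1 and 9 of mouse 2, and 2 of them in the remaining 5 and 3.

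RNA was counted with the 10x Visium assay, which captures polyadenylated RNA from a section at barcoded spots wider than a cell. Each section came from a different mouse, and both mice form 1 group: both carried hM3Dq, a designer G protein-coupled receptor that responds to CNO, both received CNO, and no untreated section was analysed here. Mouse 1 is labelled a C57BL/6J wild-type control and mouse 2 a wild-type isogenic control edited with CRISPR-Cas9, so that label and mouse cannot be told apart. The labels name neither the promoter behind hM3Dq nor the cells that made it. The sections were 10 µm thick and lay 1.9 mm posterior to bregma, the injection being at 4.6 mm, and the brains were frozen unperfused with their lateral parts trimmed away.

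Ependymal cells form the single cell layer that lines the brain ventricles, and their bundles of motile cilia move the cerebrospinal fluid. The shaft of such a cilium, the axoneme, is built of microtubule doublets carrying dynein arms, which bend it, joined to a central pair of microtubules by radial spokes and braced from within by microtubule inner proteins. Foxj1 and the RFX family are the transcription factors best known for switching on these genes. In the ventral part of the third ventricle, tanycytes replace part of the ciliated lining, and in each ventricle the lining passes over into the choroid plexus, the epithelium that secretes the fluid.

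The 30 spots held 256287 UMIs in mouse 1 and 483466 in mouse 2, with a median of 6452 and 12577 per spot, against 7578.5 and 14666 per spot over the 3682 and 3518 other spots. Mitochondrial genes took 10.4% and 11.9% of UMIs in the ependymal wall spots, against 13.4% and 15.4% elsewhere. Levels are given as CPM, the UMIs of a gene scaled to a common library total, after summing each region of each mouse, and the 2 mice are the replicates (n = 2). The sections share 3369 spot barcodes, since both used the same array layout. A spot holds several cells of different kinds, so fewer cells of a type and less RNA per cell cannot be told apart in any of these values.

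The 4 genes of the score, given as a description since they chose the spots, were all high in both mice. Ccdc153, a coiled-coil protein gene used as an ependymal marker, averaged 401 ± 134 CPM in the ependymal wall spots and 7.20 ± 0.51 CPM in all other spots (SD, n = 2 mice). Tmem212, which encodes a membrane protein, averaged 339 ± 61.2 CPM and 6.45 ± 0.34 CPM. Rarres2, which encodes the secreted attractant chemerin, averaged 603 ± 74.5 CPM and 26.6 ± 0.74 CPM. Dynlrb2, a dynein light chain gene, reached 375 and 143 CPM in mouse 1 and mouse 2, against 7.56 and 5.31 CPM elsewhere. Folr1 was 0 by the rule, against 15.2 and 9.67 CPM.

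The 4 markers were also used as pairs, each of which shares its values with the full score. The spots chosen by one pair and by the other had 20 of 30 in common in mouse 1 and 19 of 30 in mouse 2. Choosing by Ccdc153 and Tmem212 kept 23 of 30 spots in each mouse, and Rarres2, then outside the score, read 613 and 535 CPM in the chosen spots against 26.7 and 27.6 CPM in the others. Choosing by Rarres2 and Dynlrb2 kept 26 and 24 spots, and Ccdc153, then outside the score, read 503 and 313 CPM against 7.85 and 6.95 CPM. Foxj1, which the score never used, was at 123 and 118 CPM in the spots of the first choice and at 124 and 117 CPM in those of the second, with 7.30 and 7.97 CPM in the spots left out by the first.

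The ependymal label was checked with 10 further markers that the score did not use. The median spot of either mouse held 6 of the 10, with a range of 3 to 9 in mouse 1 and 1 to 10 in mouse 2. Foxj1 itself was detected in 19 and 18 of 30 ependymal wall spots (63.3% and 60%), against 4.78% and 9.69% of the other spots. On the log2 scale all 10 were higher than in all other spots, by 3.53 for Tekt1, which encodes a tektin of the doublet wall, up to 4.75 for Meig1, known for its part in sperm assembly in mice. How many of the 10 a spot outside the ependymal wall held is not given here. The check was made against all other spots. It does not by itself set ependyma apart from choroid plexus, against which Foxj1 did not pass the test. The markers of neighbouring tissue given with each comparison show that these spots were not ependyma alone.

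The spots lay in a few groups, and their place was read from neighbouring tissue, since the ventricles themselves were not mapped here. In mouse 1, 24 of 30 touched another ependymal wall spot on the array grid and 6 stood alone, and in mouse 2 the numbers were 26 and 4. By the region genes of the tissue around them, 10 spots of mouse 1 and 9 of mouse 2 lay beside the hypothalamus, 14 and 17 beside the habenula, and 6 and 4 beside the hippocampus. At least 1 of the touching spots held Folr1 for 17 and 23 of the 30, against 9.95% and 14.4% of the other spots without Folr1. Of the hypothalamic-side spots 2 and 3 did so, and of the habenular-side spots 12 and 16. Of the 6 hippocampal-side spots of mouse 1, 5 lay at the left edge of the section, each with 6 or 7 of 10 further ependymal markers, and which surface they belong to was not tested.

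**Figure D1:**
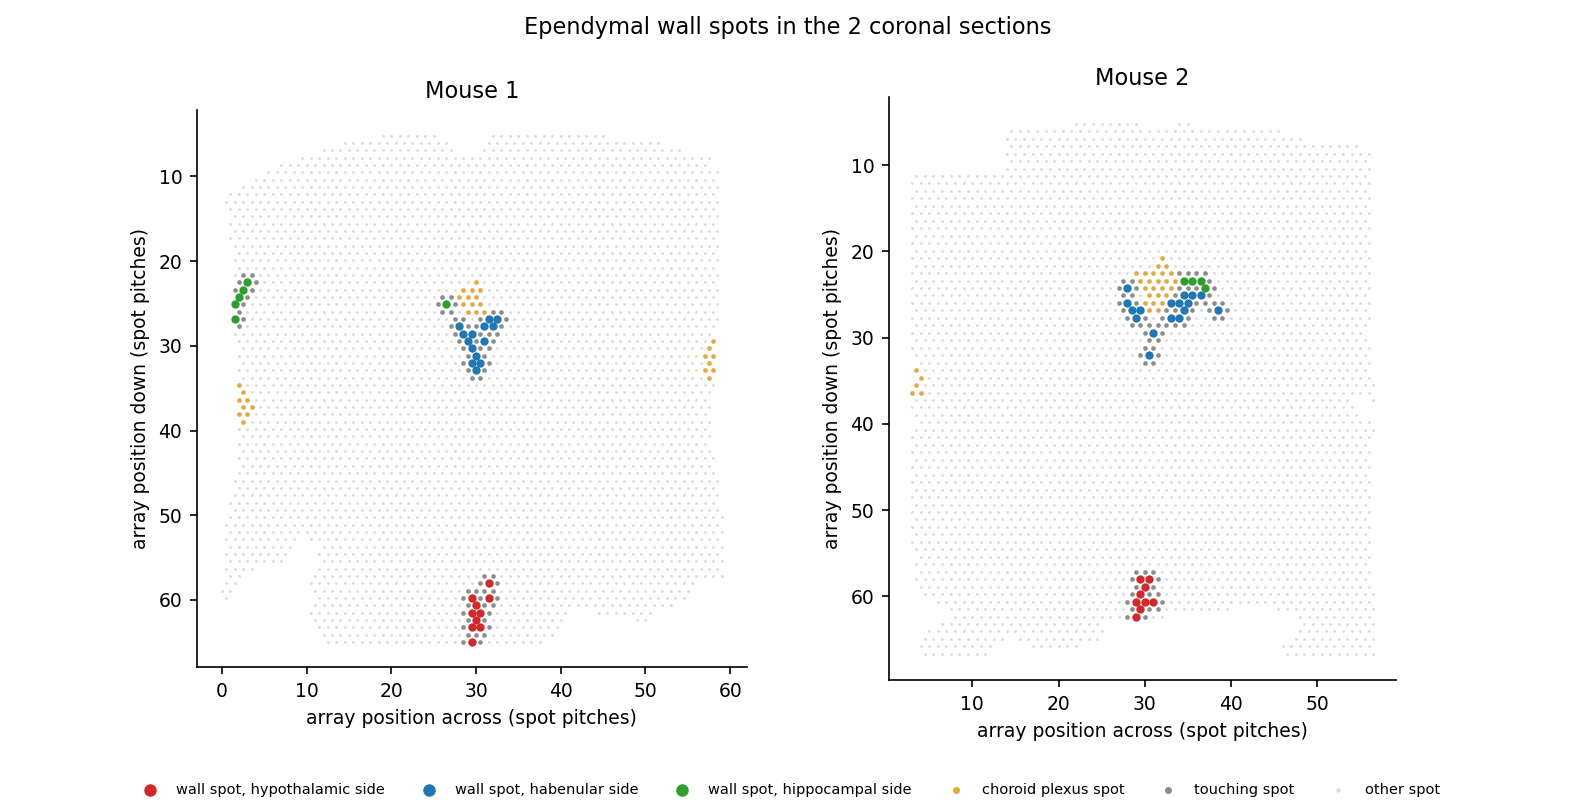
Positions of the spots in the sections of mouse 1 and mouse 2, drawn on the array grid in spot pitches. Red, blue and green points are the 30 ependymal wall spots of each mouse on the hypothalamic, habenular and hippocampal side, orange points are choroid plexus spots, and dark and pale grey points are touching and other spots. The 10 and 9 hypothalamic-side spots form a ventral midline column, apart from the 14 and 17 habenular-side spots, most of which touch spots with Folr1.

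Within the ependymal wall spots the score and the depth differed by place. The median score was 2.010 and 1.368 on the hypothalamic side, 1.13 and 0.958 on the habenular side, and 1.70 and 0.635 on the hippocampal side. Median depth was 4766.5 and 7839 UMIs per spot on the hypothalamic side, 10512.5 and 19294 on the habenular side, and 6445.5 and 12577 on the hippocampal side. No hypothalamic-side spot held more than 1 UMI of Ttr, the transthyretin gene that dominates choroid plexus RNA, while single habenular-side spots held up to 154 UMIs in mouse 1 and 214 in mouse 2. Hippocampal-side spots held up to 37 UMIs of Ttr in mouse 1 and 49 to 351 in mouse 2. The 4 hippocampal-side spots of mouse 2 also held the fewest of the 10 further ependymal markers. Their median was 2.5, against 8 on the habenular and 4 on the hypothalamic side of that mouse. The mice also differed in level: the 30 listed microtubule inner protein and tektin genes summed to 2275 CPM in mouse 1 and 1431 CPM in mouse 2, the 32 spoke, central pair and nexin link genes to 1533 and 987 CPM, and Foxj1 to 121 and 112 CPM. These differences between single mice were not tested.

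Against all other spots of the same sections, the ependymal wall spots carried more RNA of every part of the motile cilium and less RNA of neurons and myelin. Of 15124 genes tested outside the 5 genes of the rule, 925 (6.12%) were higher and 1169 (7.73%) lower (edgeR quasi-likelihood test on summed counts, mouse as a block, Benjamini-Hochberg adjusted p under 0.05). The 5 motile cilium lists (dynein arms, dynein arm assembly, spokes and central pair, microtubule inner proteins, and tubulin-modifying and other ciliary enzymes) held 117 genes found in the files, of which 113 were tested, 89 were higher and 0 lower. Their median log2 difference was 3.60, against -0.07 over all genes tested. A gene made in the same cells as the 4 markers had to be high in spots chosen on them, so these counts and folds describe what else the chosen spots held. With 1 residual degree of freedom, the spread behind each p-value is pooled over genes. With every spot thinned to 2000 UMIs edgeR called 0 genes (1010 at an unadjusted p under 0.05), while 68 of the 76 motile cilium genes still tested were positive, with a median of 3.17. Scaled by library totals, which moves the median of all genes to 0.13, the split was 1255 higher and 636 lower. Without the 5 spots at the left edge, an alternative added after the data were seen, it was 829 higher and 904 lower, with 86 of 113 motile cilium genes higher.

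Among regulators of ciliation, 7 of 20 tested genes were higher and 0 lower, with a median of 1.05. Foxj1 had 121 and 112 CPM in the ependymal wall spots, against 7.27 and 7.95 CPM in all other spots, a log2 difference of 3.72 ± 0.29 (SE). Myb, which acts upstream of Foxj1 in multiciliated cells, was higher by 4.65 and Rfx2 by 3.35. Rfx4 had 23.4 and 47.6 CPM against 13.7 and 12.5 CPM, a difference of 1.37. Cep41, which encodes a centrosomal protein needed for tubulin glutamylation, was higher by 1.94.

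The dynein arm genes, whose products are the motors, were higher in 16 of 18 tested, with a median of 3.011. Dnah12, an inner arm heavy chain gene, had 23.4 and 12.4 CPM in the ependymal wall spots, against 0.362 and 0.164 CPM elsewhere, a log2 difference of 5.89 ± 1.09 (SE) resting on 6 UMIs in each mouse. Dnali1, an inner arm light intermediate chain gene, had 74.1 and 43.4 CPM against 1.68 and 1.42 CPM, a difference of 4.98 ± 0.52. Dnah11, an outer arm heavy chain gene, was higher by 5.06 and Armc4, needed to dock the outer arms, by 4.94. The factors that assemble the arms in the cytoplasm were higher in 7 of 11, with a median of 2.53. Among them Zmynd10 had 35.1 and 41.4 CPM against 2.006 and 1.641 CPM, a difference of 4.24 ± 0.57, and Dnaaf1, Dnaaf3 and Pih1d2 differed by 4.81, 4.35 and 3.85.

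Spoke, central pair and nexin link genes were higher in 26 of 32 and microtubule inner protein genes in 26 of 29, with medians of 3.64 and 4.22. Ak7, an adenylate kinase gene of the cilium, had 121 and 76.5 CPM in the ependymal wall spots, against 1.91 and 1.57 CPM elsewhere, a log2 difference of 5.58 ± 0.42 (SE). Hydin, the central pair gene whose loss causes hydrocephalus in mice, had 27.3 and 24.8 CPM against 0.658 and 0.766 CPM, a difference of 4.95 ± 0.77. Iqca and Cfap206 were higher by 4.97 and 4.70. Sntn, which encodes the ciliary tip protein sentan, had 219 and 82.7 CPM against 2.20 and 1.44 CPM, a 66.0-fold difference and the largest fold of the 89. Enkur, a tubulin-binding microtubule inner protein gene, had 168 and 86.9 CPM against 3.55 and 3.52 CPM. These 4 genes, named for the size of their change, were higher in the ependymal wall spots of both mice than in either mouse elsewhere, beside 6.12% of all genes called higher.

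The enzyme list followed with 14 of 23 higher and a median of 2.63. Lrrc23, Nek5, Lrrc36 and Ttll6, the last a tubulin polyglutamylase gene, were higher by 5.02, 5.16, 5.47 and 5.13. Intraflagellar transport, which moves cargo in every kind of cilium and also serves the immotile cilia of neurons, was less one-sided: 10 of 34 genes were higher and 1 lower, with a median of 0.74. Ift43 had 85.8 and 66.2 CPM in the ependymal wall spots, against 25.88 and 25.95 CPM elsewhere, a log2 difference of 1.31 ± 0.26 (SE). Ttc30b, Dync2li1 and Ift80 were higher by 1.74, 1.65 and 1.62. The 1 lower gene was Kifap3, which encodes the accessory subunit of the kinesin-II motor that neurons also use, with 211 and 184 CPM against 229 and 233 CPM.

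Beside the cilium, 23 of 39 genes of the ependymal surface and secretome were higher and 2 lower, with a median of 0.92. Mia, a small secreted protein gene, had 230 and 151 CPM in the ependymal wall spots, against 9.37 and 7.496 CPM elsewhere, a log2 difference of 4.27 ± 0.24 (SE). Cdhr4, a cadherin-related gene, had 81.9 and 88.9 CPM against 1.97 and 2.95 CPM. Cdhr3, which encodes the cadherin-related receptor of human ciliated airway cells for rhinovirus C, and Krt15, a keratin gene, were higher by 4.37 and 4.62. The 2 lower genes were Slc12a2, the sodium-potassium-chloride cotransporter gene, at -1.09, and Cdh2, the N-cadherin gene, at -1.03. Vim, the vimentin gene, named after its values were seen, had 254 and 300 CPM against 36.4 and 34.5 CPM.

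**Figure D2:**
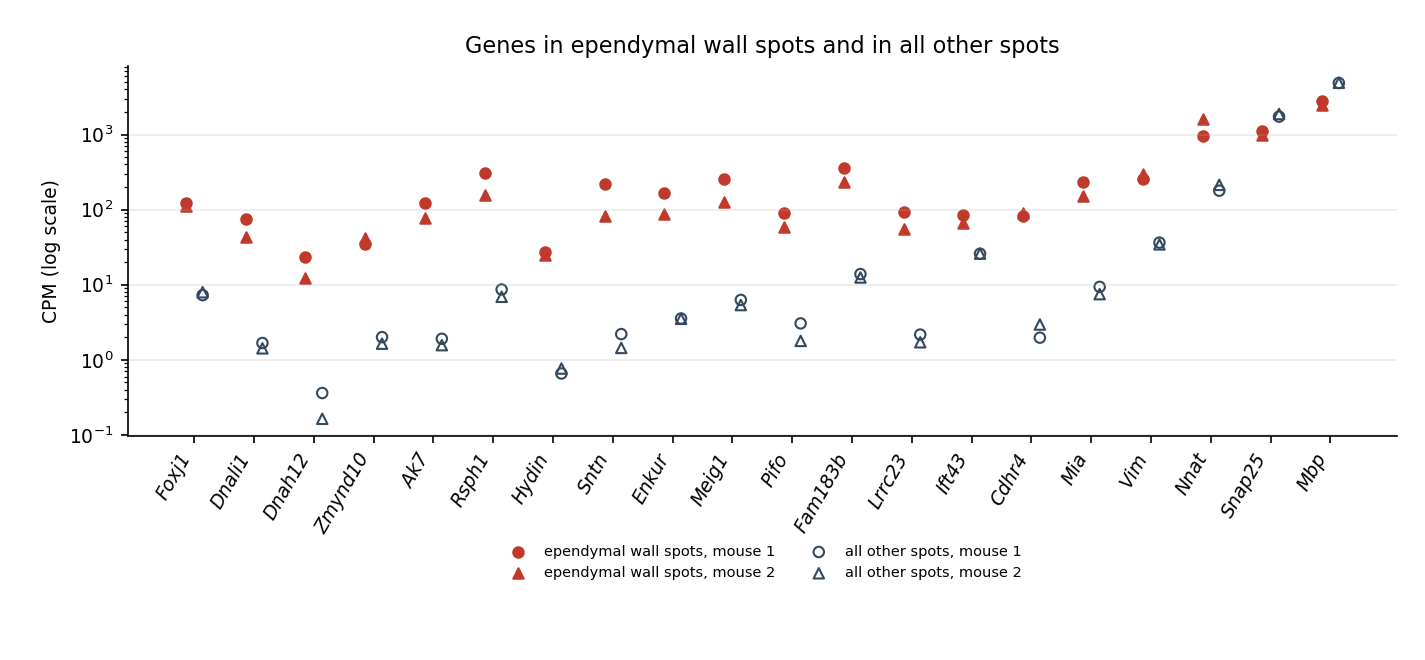
Level in CPM (vertical log axis) of 20 genes (across) in the ependymal wall spots (filled points) and in all other spots (open points), circles for mouse 1 and triangles for mouse 2. Cilium and ependymal genes lie far higher in the ependymal wall spots of both mice (Sntn at 219 and 82.7 CPM against 2.20 and 1.44 CPM), while the neuron gene Snap25 and the myelin gene Mbp lie lower.

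The letters just before the start sites of the listed motile cilium genes were read, whether or not a gene was called. Promoter windows of 300 bases, 250 before to 50 after the start (RefSeq, GRCm38.p6), were matched for 96 of the 130 listed motile cilium genes. The letters GTTGCC, on either strand, stood in 44 of the 96 (45.8%), against 3821 of 27025 genes in the table (14.1%). They stood in 32 of the 73 (43.8%) that were higher in the ependymal wall spots, no larger a share than in all 96. In the neuron and oligodendrocyte lists they stood in 6 of 22 (27.3%). GTTGCC is part of the X-box, the element that RFX factors bind. Its longer palindromic form, GTNNCC and GGNNAC with 2 free bases between them, which can overlap it, stood in 16 of 96 (16.7%), against 2.16% of all genes. GTAAACA, the forkhead letters that Foxj1 can bind, stood in 6 (6.25%) against 4.05%, and CCAAT in 44 (45.8%) against 41.1%. These are 4 of 12 spellings counted, chosen after several had been counted, and a match is a description of letters, not a site. The windows of 4 genes that the comparisons turn on show the GTTGCC, palindrome and GTAAACA letters in capitals and leave CCAAT unmarked: Sntn at chr14:13670626-13670925, plus strand, with GTTGCC starting at -66 and GTAAACA near its 5′ end, Pifo at chr3:106001448-106001747, minus strand, with GTTCCCTTGGCAAC, Enkur at chr2:21205316-21205615, minus strand, with GTTGCC starting at -34, and Fam183b at chr11:58801911-58802210, minus strand, with GTTGCC at -67 and once more closer to the start.
Sntn: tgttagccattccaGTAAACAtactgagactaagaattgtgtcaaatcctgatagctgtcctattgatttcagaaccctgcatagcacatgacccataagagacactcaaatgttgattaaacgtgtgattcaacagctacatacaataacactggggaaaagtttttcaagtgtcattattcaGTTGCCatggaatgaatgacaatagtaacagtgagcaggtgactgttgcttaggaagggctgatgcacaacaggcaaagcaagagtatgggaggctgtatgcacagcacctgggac
Pifo: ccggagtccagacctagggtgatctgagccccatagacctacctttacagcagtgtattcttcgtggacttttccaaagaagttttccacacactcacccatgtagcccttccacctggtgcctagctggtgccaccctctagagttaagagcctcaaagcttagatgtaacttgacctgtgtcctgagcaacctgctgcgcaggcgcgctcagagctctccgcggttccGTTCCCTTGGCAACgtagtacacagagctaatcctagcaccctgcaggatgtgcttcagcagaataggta
Enkur: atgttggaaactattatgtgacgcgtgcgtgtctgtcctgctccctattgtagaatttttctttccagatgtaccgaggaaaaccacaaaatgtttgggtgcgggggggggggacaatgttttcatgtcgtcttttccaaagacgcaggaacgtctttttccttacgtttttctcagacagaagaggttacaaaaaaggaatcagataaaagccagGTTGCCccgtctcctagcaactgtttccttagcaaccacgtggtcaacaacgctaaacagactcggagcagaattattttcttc
Fam183b: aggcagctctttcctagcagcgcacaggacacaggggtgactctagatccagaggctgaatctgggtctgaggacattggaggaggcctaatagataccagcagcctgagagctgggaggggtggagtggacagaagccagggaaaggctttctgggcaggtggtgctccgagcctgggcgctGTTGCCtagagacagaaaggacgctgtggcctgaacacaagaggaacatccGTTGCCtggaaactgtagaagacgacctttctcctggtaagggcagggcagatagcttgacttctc
A further window of Pifo, at chr3:106014597-106014896, held none of these letters.

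Genes of the tissue beneath the lining were lower but far from absent. Of 18 neuron genes 16 were lower and 0 higher, with a median of -0.72, and the list summed to 6079 and 6232 CPM in the ependymal wall spots, against 8663 and 9196 CPM elsewhere. Nefm, a neurofilament gene, and Gad1 and Gad2, which make GABA, gave log2 differences of -1.61, -1.47 and -1.24. Of 12 oligodendrocyte genes 11 were lower and 0 higher. Mbp, the myelin basic protein gene, had 2778 and 2505 CPM against 4861 and 4884 CPM, a log2 difference of -1.09.

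Astrocyte genes were mixed, with 4 of 15 higher and 6 lower. Gfap, the glial filament gene, had 129 and 217 CPM in the ependymal wall spots, against 89.2 and 85.2 CPM elsewhere, a log2 difference of 0.85 ± 0.17 (SE). Aqp4, the water channel gene of astrocyte end-feet and ependyma, was higher by 1.07, and Slc1a2, the main glutamate transporter gene, gave -0.89. Of 15 neural stem cell and neuroblast genes Fabp7, Id3 and Sox2 were higher, by 1.36, 1.33 and 0.78, and 0 were lower. Of 19 tanycyte genes 5 were higher and 1 lower. Rax, the homeobox gene that marks tanycytes, rested on 2 and 4 UMIs, and Slit2, a guidance cue gene, had 35.1 and 47.6 CPM against 11.05 and 10.96 CPM.

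Choroid plexus RNA differed in direction between the mice. Ttr had 2735 and 4397 CPM in the ependymal wall spots, against 3583 and 2485 CPM elsewhere (edgeR adjusted p = 0.848). Of the 18 choroid plexus genes tested, Calml4, Otx2 and Clic6 were higher, by 4.02, 2.38 and 1.52, and 0 were lower. The whole list summed to 3168 and 4805 CPM against 3734 and 2589 CPM, with 3 of its genes at 0 UMIs in mouse 1. Calml4, a calmodulin-like gene, stood on the ependymal list too. For the hypothalamic-side spots alone, a split made after the data were seen, Otx2 read -0.40 and Ttr -6.81.

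The genes of the study's title gave no call here. C1qa, a chain of the complement starter C1q made by microglia, had 50.7 and 86.9 CPM in the ependymal wall spots, against 83.5 and 70.1 CPM elsewhere (log2 -0.24 ± 0.22 SE, edgeR adjusted p = 0.602). C1qb and C1qc gave adjusted p = 0.982 and 0.387, and the mice differed in direction for all 3 chains. Igkc, the kappa light chain constant gene, had 19.5 and 37.2 CPM against 34.5 and 13.3 CPM (adjusted p = 0.551). Of 12 microglial and 9 border macrophage genes 0 were higher and 0 lower. Other complement genes did differ: Serping1, the C1 inhibitor gene, and C4b were higher by 1.80 and 1.11, and C3 by 3.98 on 1 and 7 UMIs.

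Activity and blood genes were low or uneven. Of 16 immediate early genes Egr1, Egr3 and Sgk1 were lower and 0 were higher, and Egr1 had 31.2 and 53.8 CPM in the ependymal wall spots against 80.0 and 97.2 CPM elsewhere. Fos rested on 3 and 2 UMIs (edgeR adjusted p = 0.348). Hbb-bs, the beta globin gene, had 476 and 2116 CPM against 1044 and 1723 CPM, with opposite directions in the mice. Of the meningeal fibroblast genes Aebp1, Igf2 and Ptgds were higher, by 2.71, 1.40 and 0.78, the last 2 of which read -1.81 and -2.49 for the hypothalamic-side spots alone. Outside the lists, the largest rises were in Zp3, Prr29, Lrrc71, Gm16160, Stoml3, Fam216b, Akap14, Ttc29, Gm10714 and 3300002A11Rik, from 70.7-fold for Zp3 to 54.2-fold for 3300002A11Rik. The 5 largest falls were C030017B01Rik, Nexn, Oxt, Rab37 and Prkch, of which Oxt, the oxytocin gene, had 11.7 and 0 CPM against 76.5 and 0.547 CPM.

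The excess faded within a few spots of the lining. A pitch is the distance between neighbouring spot centres. From the ependymal wall spots to the spots at 1, 2, 3, 4 to 6 and over 6 pitches, Ccdc153, which chose the spots, gave 496, 159, 24.8, 17.2, 6.51 and 3.50 CPM in mouse 1 over all spots. Over the same steps Foxj1 gave 121, 53.5, 12.4, 11.9, 5.36 and 6.14 CPM in mouse 1 and 112, 60.2, 22.4, 12.9, 5.99 and 6.08 CPM in mouse 2. Touching spots thus still stood well above distant tissue, also for Mia, which gave 88.1 and 120 CPM at 1 pitch and 6.72 and 2.82 CPM at over 6.

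In summed CPM the fall was steeper at the hypothalamus. Microtubule inner protein genes summed to 3174 and 2142 CPM in hypothalamic wall spots, against 626 and 659 CPM in their touching spots. In the other wall spots the same genes summed to 2068 and 1304 CPM, against 963 and 1041 CPM in touching spots. The choroid plexus list ran in the opposite sense around the other wall spots, with 3767 and 5605 CPM in them, 8000 and 10290 CPM at 1 pitch and 24208 and 29630 CPM at 2 pitches. In hypothalamic wall spots it summed to 564 and 327 CPM, of which Calml4 made 459 and 164 CPM, against 170 and 82.4 CPM in their touching spots. High-scoring spots with Folr1 were kept out of the wall spots but could be touching spots, mostly away from the hypothalamus. Their part in the shallower fall there was not tested. When each place was set against its own touching spots, 1 of 30 motile cilium genes was higher and 0 lower, with a median of 1.28.

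**Figure D3:**
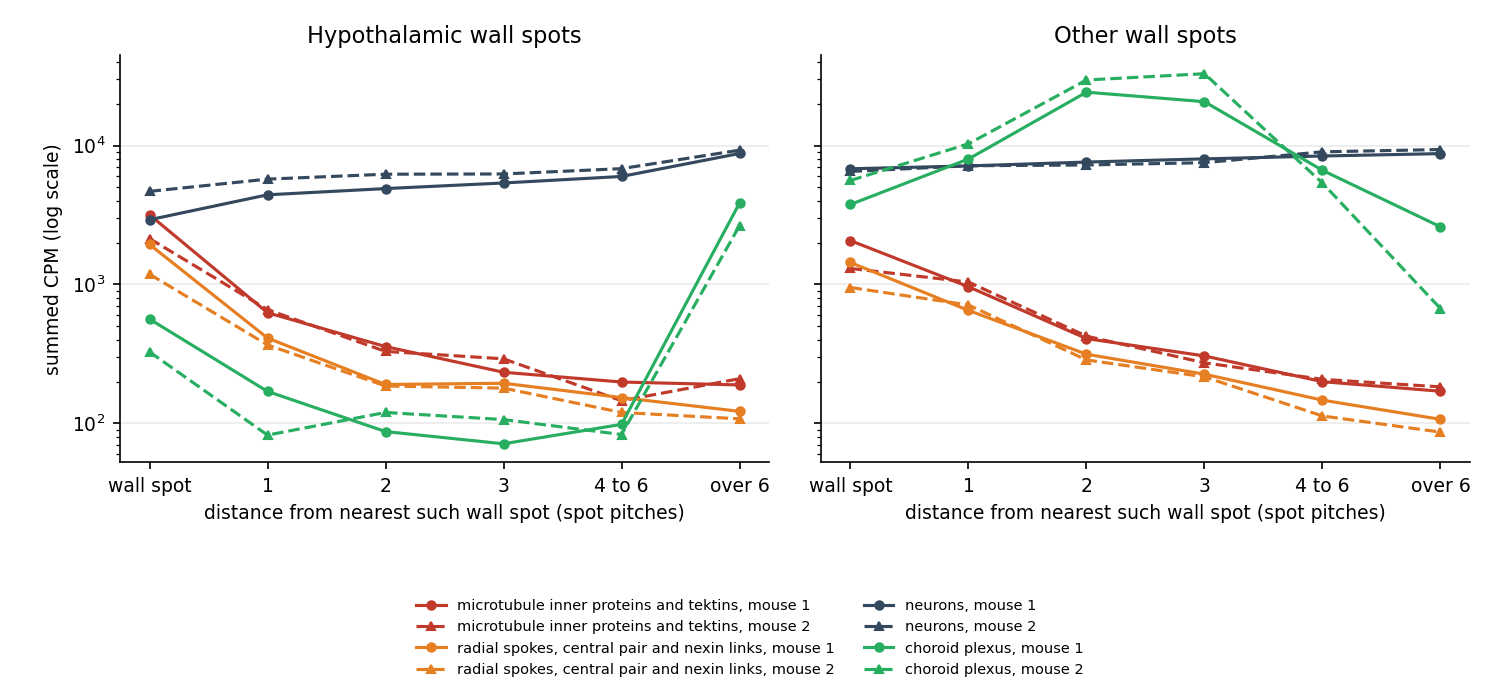
Summed level of 4 gene lists in CPM (log axis) by distance from the nearest ependymal wall spot in spot pitches, around hypothalamic wall spots in one panel and the other wall spots in the next, solid lines for mouse 1 and dashed lines for mouse 2. Ciliary lists fall with distance in both panels, and the choroid plexus list peaks 2 to 3 pitches away from the other wall spots, at 24208 and 29630 CPM at 2 pitches. The score and the condition on Folr1 chose the wall spots, so the step from them to 1 pitch is partly set by the rule.

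Set against the 71 and 74 spots that touched them, the ependymal wall spots differed in 7 genes. The touching spots were left out by the score or by Folr1, so the choice itself favours genes made in the same cells as the 4 markers. Of 8034 genes tested, 4 (0.0498%) were higher and 3 (0.0373%) lower by edgeR, with 494 at an unadjusted p under 0.05. Without the 5 spots at the left edge of mouse 1, 24 were higher and 5 lower. Sntn had 219 and 82.7 CPM in the ependymal wall spots, against 43.2 and 40.9 CPM in touching spots (log2 1.61 ± 0.28 SE, adjusted p = 0.0309). Dbi, which encodes the acyl-CoA and diazepam binding protein, had 5104 and 3161 CPM against 2363 and 2222 CPM (0.80 ± 0.10, adjusted p = 0.00302). Nnat, the neuronatin gene, had 948 and 1634 CPM against 644 and 858 CPM (adjusted p = 0.00314). Mt3, a metallothionein gene, had 4058 and 2554 CPM against 2737 and 2069 CPM (adjusted p = 0.0457).

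The 3 lower genes were Ttr, Enpp2 and Nrgn. Ttr had 2735 and 4397 CPM in the ependymal wall spots, against 6105 and 8758 CPM in touching spots (log2 -1.08 ± 0.07 SE, adjusted p = 8.49e-07). Enpp2, the autotaxin gene, abundant in choroid plexus and oligodendrocytes, had 601 and 658 CPM against 1162 and 1237 CPM (adjusted p = 0.000227). The wall spots had to hold 0 Folr1 and the touching spots did not. That condition favours lower choroid plexus RNA in the wall spots, so these values of Ttr and Enpp2 describe the choice. Nrgn, the neurogranin gene of forebrain neurons, had 300 and 397 CPM against 468 and 624 CPM (adjusted p = 0.0374). Of 64 motile cilium genes tested 1 passed the test and 62 had a positive difference, with a median of 0.86 against -0.005 over all genes. Foxj1, at 121 and 112 CPM against 53.5 and 60.2 CPM, did not pass (adjusted p = 0.149). Without the mouse block edgeR called 0 genes (354 at an unadjusted p under 0.05). With wall spots chosen without the condition on Folr1, 75 of 90 motile cilium genes were higher and 0 lower, with a median of 2.08.

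The touching spots had not been required to lack Folr1, and they held it at 41.5 and 49.4 CPM. Set against touching spots with 0 Folr1, 85 of 7266 genes (1.17%) were higher and 8 (0.11%) lower, and of 54 motile cilium genes tested 19 were higher and all 54 positive, with a median of 2.38. Foxj1 was then higher by 3.08 (adjusted p = 0.00279), Sntn by 4.02 (adjusted p = 0.000567) and Meig1 by 3.51 (adjusted p = 0.000473). Ttr and Enpp2 changed direction, to 1.69 (adjusted p = 2e-05) and 0.98 (adjusted p = 0.00417). The wall spots too were chosen on 0 Folr1, so this pairing puts both groups under that condition, whereas the score still separates them. Spots with Folr1 touched 12 and 16 habenular-side wall spots but 2 and 3 hypothalamic-side ones. Leaving them out can therefore also shift the touching spots towards the hypothalamus. The part of place in these values, those of Ttr and Foxj1 included, was not tested.

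Taken by place, a choice made after the data were seen, the hypothalamic wall spots differed from their touching spots in 33 higher (2.22%) and 6 lower (0.404%) of 1486 genes. Foxj1 had 209 and 123 CPM in them against 8.95 and 22.5 CPM beside them (log2 3.28 ± 0.91 SE, edgeR adjusted p = 0.0354). Meig1 had 459 and 259 CPM against 44.7 and 22.5 CPM (adjusted p = 1.86e-06), and Mia 334 and 191 CPM against 44.7 and 52.4 CPM (adjusted p = 0.00155). The score set these wall spots apart from their touching spots, so the excess of such ependymal genes describes the chosen spots. Away from the hypothalamus, 0 of 7292 genes were higher and 2 (0.0274%), Ttr and Enpp2, lower (358 at an unadjusted p under 0.05). The condition on Folr1, which these touching spots did not have to meet, favours that direction for both. Foxj1 there had 101 and 110 CPM against 64.2 and 64.5 CPM (adjusted p = 0.913). In the test of the difference between the places themselves, Foxj1, Sntn and Meig1 did not pass (adjusted p = 0.434, 0.321 and 0.207).

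The choroid plexus is the other ciliated lining of the ventricle, and the 30 spots of each section highest in Folr1, Kl, Clic6 and Kcne2 served for it. Against them the ependymal wall spots had far less choroid plexus RNA and more neuronal and astrocytic RNA, while most motile cilium genes did not pass the test. Of 7429 genes tested outside the genes that chose either side, 619 (8.33%) were higher and 806 (10.8%) lower by edgeR. Ttr filled so much of the choroid plexus libraries that the scaling mattered: by library totals the median of all genes was 0.39 in place of -0.01 and the split was 1146 higher and 394 lower.

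All 15 tested choroid plexus genes were lower, with a median of -4.79. Both choices of spots lead there, 1 side being taken for high choroid plexus genes and the other for 0 Folr1, so these values describe the spots and test nothing. Ttr had 2735 and 4397 CPM in the ependymal wall spots, against 161500 and 141800 CPM in choroid plexus spots (log2 -5.83 ± 0.28 SE). Enpp2 had 601 and 658 CPM against 15300 and 14210 CPM. Slc4a5, a bicarbonate transporter gene, had 3.90 and 2.07 CPM against 229 and 207 CPM, and Aqp1, the water channel gene of the choroid plexus, 0 and 6.21 CPM against 134 and 133 CPM. Stra6, the retinol carrier receptor gene, was at 0 UMIs in the ependymal wall spots of both mice and at least 3.72-fold lower, taking 3 counts per mouse as the floor. Genes of the stroma that the choroid plexus encloses were lower as well: Cd74 and the 3 other tested border macrophage genes, 7 of 8 meningeal fibroblast genes, led by Lum at -3.91, and all 4 tested blood genes.

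Motile cilium genes were higher in 13 of 61 tested and lower in 2, beside 8.33% and 10.8% of all genes, with a median of 0.37. The direction depended on how many wall spots were taken, the choroid plexus spots staying at 30. With 60 wall spots per section 5 were higher and 9 lower, with a median of -0.18. With 15 wall spots, 29 of 72 genes were higher and 1 lower, with a median of 0.95. By library totals 17 were higher and 1 lower, with a median of 0.77. With no condition on Folr1, 38 of 80 were higher and 0 lower, with a median of 1.14. DESeq2 called 2 higher and 0 lower, with 8 at an unadjusted p under 0.05. Fam183b, which encodes a microtubule inner protein, had 363 and 232 CPM in the ependymal wall spots, against 60.8 and 50.4 CPM in choroid plexus spots (log2 1.99 ± 0.28 SE, adjusted p = 5.52e-11). Sntn had 219 and 82.7 CPM against 38.5 and 21.0 CPM (adjusted p = 1.03e-06), and Enkur 168 and 86.9 CPM against 26.4 and 29.4 CPM (adjusted p = 1.9e-05). The wall spots were taken for high ependymal markers and the choroid plexus spots for other genes. That choice favours higher values, in the wall spots, of genes made in the same cells as the markers. The higher motile cilium genes, Fam183b, Sntn and Enkur among them, therefore describe the chosen spots. The 2 lower genes were Iqub and Drc7, of the spoke and the nexin link. Drc7 had 15.6 and 24.8 CPM against 71.0 and 44.8 CPM (log2 -1.72, adjusted p = 0.000304), and Iqub gave -1.80 (adjusted p = 0.00291), a call that was lost under library totals.

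Dynein arm genes gave 0 calls among 8 tested by edgeR, with a median of 0.52. Dnah9, an outer arm heavy chain gene, had 54.6 and 37.2 CPM in the ependymal wall spots, against 36.5 and 32.2 CPM in choroid plexus spots (adjusted p = 0.996). Foxj1 had 121 and 112 CPM against 75.0 and 68.6 CPM (adjusted p = 0.547). Rfx4, by contrast, was higher by 1.80. The genes that chose the spots were present in choroid plexus spots too, Ccdc153 at 89.2 and 102 CPM and Dynlrb2 at 156 and 116 CPM.

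The surface and secreted genes of the ependymal list divided, 10 higher and 9 lower of 34. Lower were Igfbp2, an insulin-like growth factor binding protein gene, at 74.1 and 88.9 CPM in the ependymal wall spots against 1196 and 728 CPM in choroid plexus spots, Trpv4, a calcium channel gene, by a log2 difference of -3.72, and Ecrg4, the augurin gene, at -3.29. Nnat, named after its values were seen, was higher at 948 and 1634 CPM against 118 and 252 CPM. Agt, the angiotensinogen gene of astrocytes, had 164 and 166 CPM against 32.4 and 33.6 CPM (adjusted p = 7.15e-08). Of 18 neuron genes 11 were higher and 1 lower, and Uchl1 had 1022 and 935 CPM against 156 and 285 CPM (adjusted p = 1.2e-14). Of 12 oligodendrocyte genes 9 were lower and 0 higher by edgeR, and 2 were lower by DESeq2. Opalin, a gene of mature oligodendrocytes, had 78.0 and 41.4 CPM in the ependymal wall spots against 112 and 109 CPM in choroid plexus spots (edgeR adjusted p = 0.000277), a call that was lost under library totals, with DESeq2 (adjusted p = 0.24) and for the wall spots with no Folr1 in touching spots. Outside the lists the rises were led by neuropeptide and region genes, Gal, Pmch and Hcrt of the hypothalamus and Gpr151 of the habenula among them, by 5.13, 4.70, 4.26 and 3.38.

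C1qa was lower than in choroid plexus spots, with 50.7 and 86.9 CPM in the ependymal wall spots against 95.3 and 105 CPM (log2 -0.88 ± 0.31 SE, edgeR adjusted p = 0.0277). The CPM rest on library totals, whereas the tested difference also carries the scaling that moved the median of all genes from 0.39 to -0.01. C1qb and C1qc did not pass (adjusted p = 0.282 and 0.14). Of 7 complement genes tested 4 were lower, Cd59a and Serping1 among them at -2.64 and -1.79. Blood genes, which moved with them, summed to 718 and 3959 CPM against 2668 and 25830 CPM, and border macrophage genes to 27.3 and 47.6 CPM against 284 and 389 CPM. Their part in the complement values was not tested.

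The ependymal wall spots differed by place. Hypothalamic wall spots had next to no Ttr, less myelin RNA and more RNA of some astroglial genes than the other wall spots, which lay beside the habenula and hippocampus. Of 2533 genes tested outside those that set the place, 61 (2.41%) were higher and 80 (3.16%) lower by edgeR. The libraries were small, 47888 and 73311 UMIs against 208399 and 410155, and without the mouse block the calls were 24 and 47.

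Ttr had 41.8 and 27.3 CPM in hypothalamic wall spots, against 3354 and 5179 CPM in the other wall spots (log2 -6.93 ± 0.58 SE, adjusted p = 1.76e-29). Zic1, a dorsal patterning gene, had 41.8 and 54.6 CPM against 466 and 573 CPM (adjusted p = 5.49e-08), and Zic4 was at 0 UMIs in hypothalamic wall spots of both mice. Enpp2 had 62.7 and 81.8 CPM against 725 and 761 CPM (adjusted p = 9.46e-10). Ptgds, the prostaglandin D synthase gene of meninges and oligodendrocytes, had 167 and 409 CPM against 2534 and 3755 CPM (adjusted p = 6.5e-14). Of 11 oligodendrocyte genes 7 were lower, and Apod, the apolipoprotein D gene, had 41.8 and 95.5 CPM against 422 and 556 CPM (adjusted p = 5.41e-06).

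Higher at the hypothalamus were glial genes and those of GABA neurons. Itih3, which encodes a heavy chain that stabilises hyaluronan, had 355 and 232 CPM in hypothalamic wall spots, against 33.6 and 19.5 CPM in the other wall spots (log2 3.57 ± 0.52 SE, adjusted p = 1.47e-09). Agt had 376 and 437 CPM against 115 and 117 CPM (adjusted p = 0.000278), and Slc1a3, the glial glutamate transporter gene, 480 and 327 CPM against 110 and 134 CPM (adjusted p = 0.00106). Slc32a1, the vesicular GABA transporter gene, had 104 and 136 CPM against 14.4 and 12.2 CPM (adjusted p = 0.00215), while Slc17a7, a glutamate transporter gene of cortex and hippocampus, gave -2.54. Outside the lists Sparc, a matrix glycoprotein gene, had 1002 and 1569 CPM against 259 and 195 CPM. Itih3 was high in the touching spots as well, with 340 and 479 CPM at the hypothalamus against 40.7 and 22.4 CPM elsewhere. When each place was first set against its own touching spots, a test added after the data were seen, 2 of 3937 genes (0.0508%) were higher and 1 (0.0254%) lower, and 0 of the 33 named genes called between the places kept the call.

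Of 11 microtubule inner protein genes tested 3 were higher, 10 were positive and the median was 0.90, against -0.03 over all genes tested. Sntn had 272 and 246 CPM in hypothalamic wall spots, against 206 and 53.6 CPM in the other wall spots (log2 1.38 ± 0.45 SE, adjusted p = 0.0374). Enkur had 376 and 136 CPM against 120 and 78.0 CPM (adjusted p = 0.0402), and Meig1 459 and 259 CPM against 206 and 105 CPM (adjusted p = 0.0272). These were the 3 calls among 18 motile cilium genes tested, and 0 were called with edgeR under library totals, without the mouse block or without the count filter, or with DESeq2 (5, 7, 4 and 1 at an unadjusted p under 0.05). Foxj1, at 209 and 123 CPM against 101 and 110 CPM, did not pass (adjusted p = 0.56). The score itself was higher at the hypothalamus, Ccdc153 reading 1128 and 559 CPM against 350 and 261 CPM, and the part of this in the cilium values was not tested.

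Most tanycyte genes were not detected in hypothalamic wall spots at this depth. Of 20 genes 13 in mouse 1 and 11 in mouse 2 were at 0 UMIs there, and the list summed to 397 and 464 CPM in hypothalamic wall spots, against 509 and 727 CPM in the other wall spots. Rax had 2 and 0 UMIs. All 10 border macrophage genes were at 0 UMIs in hypothalamic wall spots of both mice, and C1qa had 0 and 4 UMIs. The border macrophage list summed to only 24.1 and 29.4 CPM in all other spots. A floor of 3 counts is 62.6 and 40.9 CPM in the hypothalamic wall spots, so the zeros of that list do not show absence. Gfap did not differ by the test (adjusted p = 0.809).

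**Figure D4:**
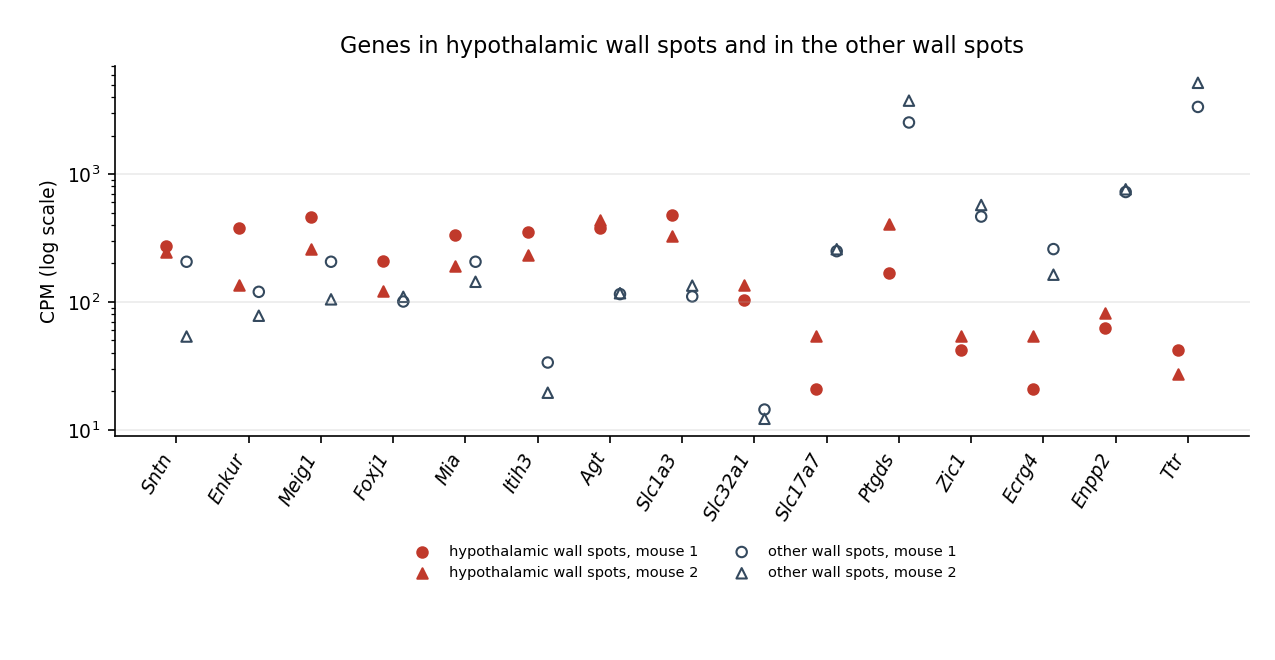
Level in CPM (vertical log axis) of 15 genes (across) in hypothalamic wall spots (filled points) and in the other wall spots (open points), circles for mouse 1 and triangles for mouse 2. Ttr (41.8 and 27.3 CPM against 3354 and 5179 CPM), Zic1 and Ptgds lie lower in hypothalamic wall spots, Itih3 and Agt lie higher, and Foxj1 did not pass the test.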

How the data were processed

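The deposited files hold UMI counts, as whole numbers, for 32285 genes in each spot. Per the file headers the authors used Space Ranger 1.3.1, and the submitters' processing notes name mm10; aligner settings and annotation release are not stated there. Of the genes, 78 share a symbol and were not matched by symbol. Totals were 30671753 UMIs in mouse 1 and 55315952 in mouse 2.

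UMIs were summed per mouse and region (4 libraries a fit) and compared with the quasi-likelihood test of edgeR 4.0.16 under R 4.3.3. TMM scaling and filterByExpr were used, mouse was a block since the regions compared come from the same animal, and the Benjamini-Hochberg threshold was 0.05. With 1 residual degree of freedom the prior degrees of freedom were unbounded, or 14.3 against touching spots, so standard errors rest on a spread pooled over genes and not on the 2 mice. Genes of the rule, and region genes where they set the place, were left out of tests. DESeq2 1.42.0, library totals, other numbers of spots, other markers and thinned spots were alternatives. On simulated data with 4-fold changes, 48.4% of the changed genes among 15129 were recovered against all other spots, 84% among 8039 against touching spots, 79.2% among 7437 against choroid plexus spots and 76.8% among 2555 between places, so genes without a call can hold changes of that size.

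Place came from 6 sets of region genes in spots within 3 pitches. The members and the 24 gene lists (421 genes, 406 among the symbols) were chosen with earlier results of these data known. Named by rule were, per list, up to 4 genes with the largest change past the threshold in the same direction in both mice (or up to 2 of the most abundant), the 10 largest rises and 5 largest falls outside the lists at 20 CPM or more, and the genes of the rule, Foxj1, Ttr, Gfap, C1qa, C1qb, C1qc, Igkc and Fos. Gene start windows came from RefSeq tables of GRCm38.p6. Foxj1 is named only. A few genes are not reported here singly, and were not replaced under that rule; counts over lists and all genes include them. Figures were drawn in Python 3.11.15 with matplotlib 3.10.9.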

Additional observations from a re-analysis of the deposited data

Results flagged for a closer look

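The difference between ependymal wall spots and their touching spots was itself set between the hypothalamic side and the other places, in a fit of 8 libraries added after the data were seen, and 3 genes passed (edgeR quasi-likelihood, Benjamini-Hochberg adjusted). Of 3937 genes tested, 2 (0.0508%) were higher and 1 (0.0254%) lower, with 197 at an unadjusted p under 0.05. Calml4, a calmodulin-like gene, gave a log2 difference of 3.84 ± 0.75 (SE, adjusted p = 0.0157). It had 459 and 164 CPM in hypothalamic wall spots against 8.946 and 14.98 CPM in their touching spots, and 182 and 124 CPM in the other wall spots against 96.3 and 87.8 CPM in theirs. Pifo, which encodes a protein of the cilium base, gave 8.27 ± 1.78 (adjusted p = 0.0361). It had 188 and 123 CPM in hypothalamic wall spots and 0 UMIs in the touching spots of both mice, so that the fitted size depends on zeros, and 67.2 and 46.3 CPM in the other wall spots against 47.1 and 33.6 CPM.

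Hba-a2, an alpha globin gene of red blood cells, gave -2.93 ± 0.59 (adjusted p = 0.0186). It had 167 and 68.2 CPM in hypothalamic wall spots against 224 and 951 CPM in their touching spots, and 67.2 and 763 CPM in the other wall spots against 135 and 464 CPM. The mice did not share the direction, with 0.53 in mouse 1 and -4.40 in mouse 2.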

How the results depend on the processing

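Against all other spots, 85 of the named genes were called, of which 84 had 1 sign in both mice and 10 kept the call under every alternative that gave them a value. Thinning called 0 genes, so all 61 named genes with a value there lost the call. The 10 had no value after thinning, and their number is therefore no measure of the firmest calls. The numbers of higher and lower genes were 614 and 645 with 15 spots per section, 590 and 282 with DESeq2, 136 and 316 for hypothalamic-side spots, 142 and 317 for spots with no Folr1 in touching spots, and 0 and 0 after thinning. Lower genes numbered 636 with library totals, 714 in the joint fit of 4 regions and 653 without the mouse block. For hypothalamic-side spots Otx2 turned to -0.40, Igf2 to -1.81, Ptgds to -2.49, Hspb1 to -1.03 and Ttr to -6.81. For spots with no Folr1 in touching spots Clic6 read -0.41, Igf2 -0.47, Ptgds -1.14, Hspb1 -0.27 and Ttr -3.62. Ttr read -1.24 with 15 spots, Cd74 1.70 with no condition on Folr1, and Hbb-bs 0.10 without mouse 1, against -1.34 without mouse 2. The cause was not tested.

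Against touching spots, 0 of the 7 calls held under every alternative, since the fit without the mouse block called 0 genes. Higher and lower genes numbered 31 and 9 with 60 spots, 85 and 8 with touching spots of 0 Folr1, 33 and 6 on the hypothalamic side, 7 and 0 in the joint fit, 49 and 9 for spots with no Folr1 in touching spots, 545 and 215 with no condition on Folr1, 24 and 7 without the count filter, 13 and 7 with the score of Rarres2 and Dynlrb2, 24 and 5 without the spots at the lateral edge, and 0 and 1 after thinning. Higher genes numbered 18 with library totals, 15 with the score of Ccdc153 and Tmem212, 0 away from the hypothalamus, and 0 with DESeq2 (30 at an unadjusted p under 0.05). Enpp2 and Ttr turned to 0.98 and 1.69 with touching spots of 0 Folr1, and Ptgds to 0.58 with no condition on Folr1. Hba-a1 turned to -1.96 on the hypothalamic side, -0.42 with no condition on Folr1, -0.74 with 60 spots, -1.64 for spots with no Folr1 in touching spots and -1.43 with the score of Rarres2 and Dynlrb2.

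Against choroid plexus spots, 45 of 79 calls held throughout. The numbers were 86 and 194 with DESeq2, 1146 and 394 with library totals, 275 and 371 on the hypothalamic side, 257 and 368 for spots with no Folr1 in touching spots and 79 and 110 after thinning, with 516 lower for 15 spots and 345 higher without the mouse block. Between places, 0 of 33 calls held throughout, and the numbers were 20 and 11 with DESeq2, 19 higher without the count filter and 2 and 1 in the test against own touching spots. In that test Itih3 turned to -0.33, Zic1 to 0.75, Enpp2 to 0.55, Ecrg4 to 6.70, Slc17a7 to 0.75, Gad2 to -0.67, AW551984 to -0.20, Gap43 to -0.12 and Nap1l5 to -0.10. Fits without the replicate block gave 769 higher genes against all other spots, 0 and 0 against touching spots and 24 and 47 between places. Spots taken by place, spots without those at the lateral edge, and the test against own touching spots, were alternatives added after seeing the data. Values in single mice carry no test. Small libraries limit the comparison of places, since 4 UMIs there are 54.6 CPM in mouse 2.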
